A study of Mus musculus with 22 samples.

Results

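Genes that mark cerebellar granule cells were followed through the right brain hemispheres of dominant and submissive mice. They were the 10 genes Gabra6, Cbln1, Cbln3, Fat2, Neurod1, Zic1, Zic2, Zic4, Chn2 and Il16, taken by symbol from the 24421 genes of the count tables, and each had 1 row. Pcp2, a gene of Purkinje cells, served as the reference for another cerebellar cell type. The 10 genes were chosen with measured values of these libraries in view, among them the low cerebellar values of dominant male 1, so their levels and what remained of them in that library are a description and carry no test.

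The libraries came from total RNA of whole right hemispheres of C57BL/6JOlaHsd mice, an inbred laboratory strain, and the labels name no transgene or treatment for any group. Mice were housed with 4 per cage and ranked at an age of 10 to 12 weeks in the tube test, in which mice that meet in a narrow tube push each other back. The 4 groups were 7 dominant males, 7 submissive males, 4 dominant females and 4 submissive females. The dominant and the submissive mouse with the same replicate number came from the same cage. For females 3 and 4 the labels name a group instead of a cage number, and these groups are called cages 3 and 4 of the females below. Females of intermediate rank had been regrouped by 4 and ranked a second time. Whether the labelled groups of females 3 and 4 arose in this way is not stated in the sources used here. Each right hemisphere had been chopped into 3 pieces before it was stored in RNAlater. Males and females were sequenced under different project names, so sex and project cannot be told apart.

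Granule cells are the most numerous neurons of the brain. They are small excitatory cells packed in the granular layer of the cerebellar cortex, and their axons, the parallel fibres, form synapses on the dendrites of Purkinje cells. In these synapses cerebellin proteins released by the granule cell hold the axon and the Purkinje cell together, and a GABA-A receptor with the alpha-6 subunit gives the granule cell its tonic inhibition. Members of the ZIC and NeuroD families of transcription factors are active in granule cells and their precursors, and in some neurons outside the cerebellum.

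Between 12403943 and 16488762 reads per library were counted on genes, and all 54 pairs of libraries within a group differed by more than sampling noise (mean chi-square per gene 1.82 to 16.6). Ddx3y, a gene of the Y chromosome, had a count of 0 in all 8 females. Dominant male 1 stood apart from the other 21 libraries in the genes described here although its depth of 14214631 counts was ordinary, and results that rest on it are given with and without it. Since whole tissue was measured, fewer granule cells and less RNA per granule cell cannot be told apart in any value below. The sources used here do not state how much cerebellum each sampled hemisphere held, and a smaller piece of cerebellum in dominant male 1 cannot be told apart from these either.

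The upstream sequences of Gabra6, Cbln3 and Fat2 are shown because these genes were reduced most in dominant male 1, and that of Pcp2 because it is the reference. RefSeq windows of the 250 bases before a transcript start were at hand for 8 of the 10 members, 13 windows in all, and Cbln1 and Zic2 had none. Bases that GENCODE counts as exon in another transcript were left out. Capitals mark the E-box CANNTG, the core bound by NeuroD and related factors, and TTGGC, a site of nuclear factor I. Both were searched on both strands, and a nuclear factor I site on the opposite strand reads GCCAA.
Gabra6, GRCm38.p6, minus strand, chr11:42321073-42321322: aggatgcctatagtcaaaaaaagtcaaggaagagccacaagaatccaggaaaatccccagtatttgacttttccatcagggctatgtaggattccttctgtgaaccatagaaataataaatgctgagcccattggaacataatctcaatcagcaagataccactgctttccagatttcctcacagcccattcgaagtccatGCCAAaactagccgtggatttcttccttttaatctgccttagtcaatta
Cbln3, GRCm38.p6, minus strand, chr14:55884393-55884506: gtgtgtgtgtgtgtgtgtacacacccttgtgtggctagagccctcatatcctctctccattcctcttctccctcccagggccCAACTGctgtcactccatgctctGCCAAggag
Fat2, GRCm38.p6, minus strand, chr11:55312258-55312507: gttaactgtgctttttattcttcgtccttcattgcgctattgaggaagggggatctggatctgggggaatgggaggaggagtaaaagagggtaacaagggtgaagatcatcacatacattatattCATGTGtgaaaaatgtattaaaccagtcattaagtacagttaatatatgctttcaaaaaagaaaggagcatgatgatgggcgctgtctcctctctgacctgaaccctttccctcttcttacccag
Pcp2, GRCm38.p6, minus strand, chr8:3625607-3625778: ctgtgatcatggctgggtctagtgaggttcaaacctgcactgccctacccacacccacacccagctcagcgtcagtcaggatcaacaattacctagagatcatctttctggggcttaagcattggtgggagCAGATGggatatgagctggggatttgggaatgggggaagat

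E-boxes were found in 11 of the 13 member windows (84.6%) and in 66.2% of the 32851 windows of all genes, and TTGGC was found in 7 of the 13 (53.8%) against 41.5%. The 13 windows are not independent, since Chn2 had 4 of them and Il16 had 3. Counted by gene, 7 of the 8 members with a window held an E-box and 5 of the 8 held TTGGC. The E-box variant CAGATG stood in 2 member windows, both of Il16, and in 14.4% of all windows. The printed stretch of Gabra6 held TTGGC but no E-box, that of Fat2 held an E-box but no TTGGC, and that of Cbln3 held both. GENCODE has a longer Fat2 transcript that starts further upstream, so the Fat2 stretch lies within an intron of that transcript. CAGCTG, also an E-box, stood in 2 member windows, both of Chn2 (13% of all windows), and CAGCAGG, the core bound by ZIC factors (8.44% of all windows), and TATAAA (12.4%) in none of the 13. These matches describe letters in a window and no binding was measured.

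Gabra6 (42306437 to 42321072) and Fat2 (55250610 to 55312257) are on chromosome 11, Cbln3 (55878920 to 55884256) and Zic2 (122475384 to 122480328) on chromosome 14, and Cbln1 (87468853 to 87472592) on chromosome 8, in mm10. Neurod1 (79452641 to 79456636) is on chromosome 2, Chn2 (54039932 to 54301812) on chromosome 6 and Il16 (83643063 to 83735490) on chromosome 7. Zic1 (91360345 to 91365799) and Zic4 (91368972 to 91389348) stand head to head on chromosome 9 with 3172 bases between them. Of the members, only Chn2 shared exon bases with another gene in the file's gene models, 552 of its 3404 with 9130019P16Rik, and Pcp2 shared 188 of 625 with Pet100. Both are uncertain to that extent, because the strand setting of the counting was not given in the sources used here.

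Per kilobase of exon, Gabra6 and Chn2 were the most abundant of the 10 genes and Zic4 the least. The median over the 22 libraries was 61.5 RPKM (reads per kilobase of exon, scaled to the counted reads of the library) for Gabra6, 52.6 for Chn2, 33.0 for Cbln3, 26.5 for Cbln1, 24.9 for Neurod1 and 22.01 for Zic1. It was 8.37 RPKM for Il16, 8.02 for Zic2, 7.11 for Fat2 and 2.78 for Zic4. The order of Il16, Zic2 and Fat2 differed between the sexes, with medians of 9.09, 7.66 and 9.54 RPKM in the 13 other males and of 7.86, 10.64 and 6.03 RPKM in the females. Neighbours in this order were not all apart. Chn2 exceeded Cbln3, and Zic1 exceeded Il16, in 22 of 22 libraries, but Il16 exceeded Zic2 in only 13 of 22 and Zic2 exceeded Fat2 in 12 of 22. In all other values below the unit is CPM, counts relative to the library total scaled with the TMM factors of edgeR, which compares libraries for a single gene.

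**Figure D1:**
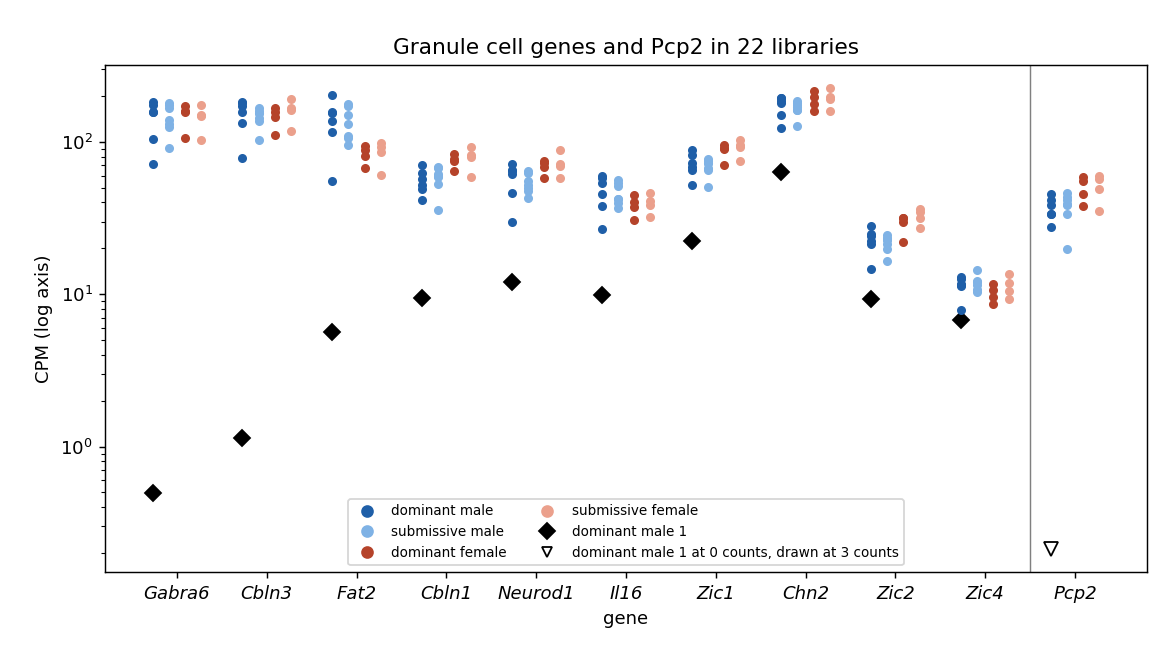
Expression in CPM (log axis) of the 10 granule cell genes, ordered by what remained in dominant male 1, and of Pcp2, in 22 libraries. Each point is 1 library, colours give the 4 groups, and black diamonds mark dominant male 1, which lay below every other male for all 10 genes and had 0 counts of Pcp2 (drawn at the level of 3 counts, 0.213 CPM).

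Gabra6 encodes the alpha-6 subunit of the GABA-A receptor and is the classical marker of mature granule cells. Among dominant males, number 1 had 0.497 CPM, and the other 6 ranged from 71.5 to 184 CPM with a median of 157. The 7 submissive males ranged from 91.7 to 179 CPM (median 140.2), and thus fell within the range of the 6 dominant males. Dominant females 1 to 4 had 157, 161, 172 and 106 CPM, and submissive females 1 to 4 had 147, 103, 175 and 150.1. Each female group held 1 mouse near 100 CPM, dominant female 4 and submissive female 2, and the groups overlapped.

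Cbln1 and Cbln3 encode cerebellins, and Cbln3 needs Cbln1 to leave the cell. Cbln3 had 1.14 CPM in dominant male 1, 77.8 to 182 CPM (median 164) in the other 6 dominant males and 103 to 168 CPM (median 154) in the submissive males. In dominant females 1 to 4 it had 146, 167, 157 and 111 CPM, and in submissive females 162, 117, 190.3 and 166. Cbln1 had 9.44 CPM in dominant male 1, 41.4 to 70.7 CPM (median 54.6) in the other dominant males and 35.9 to 68.9 CPM (median 60.1) in submissive males. The lowest Cbln1 value of the other 13 males was that of submissive male 4, whereas for Cbln3 it was that of dominant male 5. In females Cbln1 ranged from 64.0 to 83.8 CPM in dominant and from 59.1 to 93.1 CPM in submissive mice.

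Fat2 encodes a large cadherin on the parallel fibres and varied most among the 13 other males, though not among the females. It had 5.68 CPM in dominant male 1, 55.2 to 204 CPM (median 146) in the other 6 dominant males and 95.01 to 176 CPM (median 131) in submissive males. Dominant females 1 to 4 had 80.4, 94.6, 88.5 and 67.3 CPM, and submissive females had 91.9, 60.4, 98.2 and 85.5. The 8 female values thus overlapped only with the lower male values.

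The transcription factors were Neurod1, a basic helix-loop-helix factor needed for granule cells to mature and survive, and the zinc finger factors Zic1, Zic2 and Zic4. Neurod1 had 11.99 CPM in dominant male 1 and 29.8 to 71.7 CPM (median 55.7) in the other 13 males. Zic1 had 22.4 CPM against 50.9 to 89.0 (median 72.1), Zic2 9.29 CPM against 14.6 to 28.0 (median 22.7), and Zic4 6.81 CPM against 7.90 to 14.5 (median 11.6). Zic4 came nearest to the other males. In the 8 females the medians were 70.1 CPM for Neurod1, 91.4 for Zic1, 31.6 for Zic2 and 10.5 for Zic4.

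Chn2 encodes beta-chimaerin, a protein that switches off the small GTPase Rac, and Il16 encodes the precursor of interleukin 16, of which neurons make a long form. Chn2 had 63.7 CPM in dominant male 1, 124 to 194 CPM (median 175) in the other 13 males and 159 to 226 CPM (median 195) in the females. Il16 had 9.93 CPM in dominant male 1, 26.9 to 59.5 CPM (median 45.3) in the other males and 30.9 to 46.2 CPM (median 39.2) in females. Chn2 had the smallest relative range of the 10 genes over the 13 males, 1.56-fold.

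What remained in dominant male 1 differed widely between the members. Relative to the median of the other 13 males, 0.318% of Gabra6 remained, from 7 counts (95% exact Poisson interval 0.128 to 0.655%), and 0.732% of Cbln3, from 16 counts (0.419 to 1.19%). Fat2 remained at 4.12% (3.27 to 5.13%, 80 counts) and Cbln1 at 16.0% (13.4 to 18.9%, 133 counts). These intervals cover counting error only, of reads that carried no molecular identifiers. The intervals of Gabra6 and Cbln3 overlap each other, and those of these genes and Fat2 lie below the intervals of the other 7 members.

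The other 6 members kept a larger part. Neurod1 remained at 21.5% (18.4 to 25.02%, 169 counts) and Il16 at 21.9% (18.4 to 25.9%, 140 counts), and these do not differ beyond counting error. Zic1 remained at 31.1% (27.7 to 34.7%, 316 counts), Chn2 at 36.5% (34.1 to 38.9%, 898 counts) and Zic2 at 40.9% (34.2 to 48.5%, 131 counts). Zic4, at 58.9% (47.8 to 72.0%, 96 counts), was the only member whose interval reached the lowest other male (68.4%). The intervals of the neighbouring genes Zic1 and Zic4 did not overlap.

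**Figure D2:**
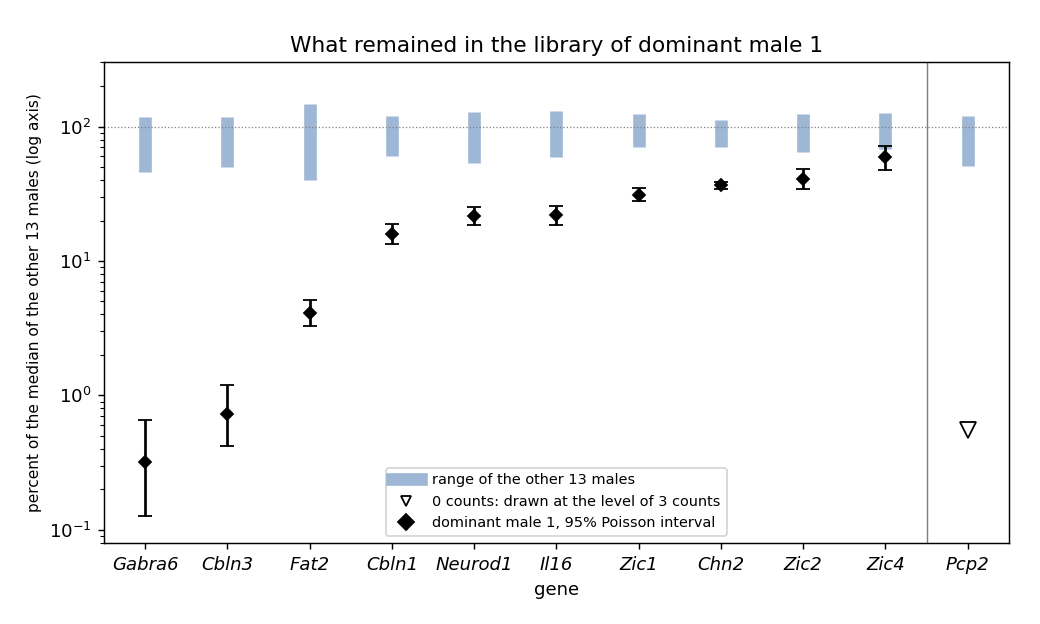
CPM in dominant male 1 as a percentage of the median of the other 13 males (log axis) for the 10 genes and Pcp2, with 95% exact Poisson intervals. Bars give the range of the other 13 males, and remaining shares ran from 0.318% for Gabra6 to 58.9% for Zic4, with no count of Pcp2 (drawn at the level of 3 counts, 0.55%).

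The shares can be set beside all 14246 genes with a median of at least 1 CPM in the other 13 males. Fewer than 5% remained for 3 of the 10 members and for 0.0913% of all genes, fewer than 10% for 3 members and for 0.126% of all genes, and fewer than 25% for 6 members and for 0.316% of all genes. Fewer than 50% remained for 9 members and for 0.948% of all genes. All 10 members were below every other male, as were 11.3% of all genes. In the order of all genes from the smallest share, Gabra6 was 4th, Cbln3 5th, Fat2 12th, Cbln1 28th and Zic4 219th. Since these values led to the choice of the members, nothing is read from the comparison.

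Pcp2, a regulator of G protein signalling in Purkinje cells, had 0 counts in dominant male 1, which allows up to 3 counts or 0.55% of the median of the other males, and up to 0.676% by the Poisson interval used for the members. It had 38.7 CPM in the median of the other 13 males (19.9 to 46.4) and 52.2 CPM in the median of the females (35.3 to 60.1). Other Purkinje cell genes were reduced to unequal degrees too. Ppp1r17 remained at 2.31%, Car8, which encodes a carbonic anhydrase-related protein, at 4.84%, and Homer3, a scaffold of postsynaptic glutamate receptors, at 17.4%. At the other end of the list Rora remained at 85.4% and Pcp4 at 89.2%. Over the 13 listed Purkinje cell genes with at least 1 CPM the median was 46.0% and all 13 lay below every other male. Over the 10 members the median was 21.7%, but they were chosen with these values in view, so it is not compared with that of the Purkinje cell genes.

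Further genes known from granule cells but not among the members were reduced to unequal degrees, and since the members were chosen with these values in view their medians are not compared. Of 14 such genes, 11 had at least 1 CPM, and their remaining shares had a median of 56.7% and a range of 12.9 to 91.3%. En2, a homeobox gene of the cerebellum, remained at 12.9%, Grm4, a glutamate receptor of parallel fibre endings, at 37.3%, Pax6 at 43.2%, Grin2c, an NMDA receptor subunit, at 56.7%, and Gabrd, the partner of the alpha-6 subunit, at 83.6%. Of the genes listed for Bergmann glia, interneurons and unipolar brush cells, 6 had at least 1 CPM, with a median of 45.2%. The synaptic partners of the members were mostly kept. Over 12 listed genes, among them other cerebellins and GABA-A subunits, the median was 101%, with Cbln2, another cerebellin, at 125%.

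For the lists of other regions and cell types the median share in dominant male 1 was 110% for 6 genes of cortex and hippocampus, 112% for 6 of the striatum, 94.2% for 3 of the thalamus, 122% for 3 of microglia, 95.1% for 3 of oligodendrocytes and 93.7% for 3 of astrocytes. Over 5 genes listed for dentate granule cells the median was 94.6%, but 2 of them lay below every other male, Calb1, which is also a Purkinje cell gene, at 50.5% and Tdo2 at 54.2%. The median was 75.2% for 3 genes of the choroid plexus and 69.3% for 3 of the olfactory bulb. Single genes of these lists below every other male were Eomes, which also marks unipolar brush cells, at 16.7%, Aqp4, the water channel of astrocytes, at 75.4% and Prkcd, a kinase gene listed for the thalamus, at 80.0%. The 3 brain stem genes with at least 1 CPM had a median of 45.2%, with Slc6a5, Tph2 and Slc6a4 at 57.3%, 45.2% and 31.3%, and none of them lay below every other male. The summed level of the members was 141 CPM in dominant male 1, 501 to 1058 CPM in the other males and 697 to 1070 CPM in the females. The part of tissue composition in these differences was not tested.

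The members also moved together in the other libraries. Dominant male 5 had the lowest value of the 13 other males for 8 of the 10 genes and submissive male 4 for the other 2, Cbln1 and Zic1. In females, dominant female 4 and submissive female 2 were the lowest pair for 10 of 10 genes, and submissive female 3 was the highest for 10 of 10. The 45 pairwise Pearson correlations of log2 CPM had a median of 0.833 over the 13 other males (0.406 to 0.954) and of 0.914 over the 8 females (0.709 to 0.984). Cbln1 and Il16 were the least alike pair in the males and Gabra6 and Neurod1 the most alike. These correlations are a description over libraries that share their scaling.

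Members that were lowest in dominant male 1 tended to vary most among the other males. The standard deviation of log2 CPM over the 13 other males was 0.49 for Fat2, 0.42 for Gabra6 and 0.35 for Cbln3, against 0.21 for Chn2 and 0.20 for Zic4. Across the 10 genes its Spearman correlation with the remaining share was -0.891, and with the standard deviation over the 8 females it was -0.636. The 10 points share libraries, and no p is given. The range over the 13 males exceeded 2-fold for 5 of the 10 genes, with 3.69-fold for Fat2 as the widest, and over the 8 females for 0 of 10.

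**Figure D3:**
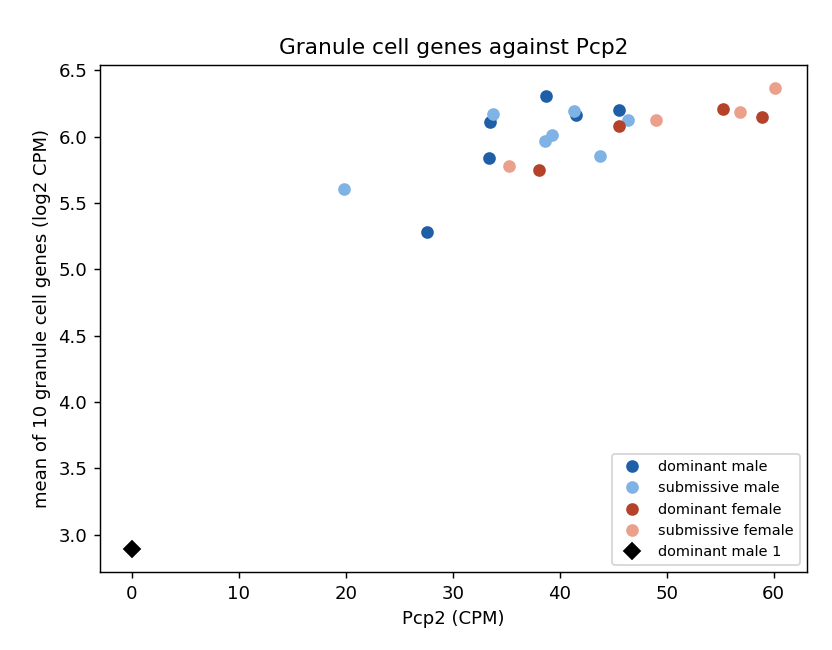
Mean log2 CPM of the 10 granule cell genes against the CPM of Pcp2 in 22 libraries, with 1 point per library and colours for the 4 groups. Dominant male 1 lies at 0 CPM of Pcp2 and 2.89 log2 CPM of the members, and the other 21 libraries lie between 5.28 and 6.37.

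The level of Pcp2 went with that of the members, and in males this rested on a few libraries. Pearson's r of Pcp2 with the mean of the members (log2 CPM) was 0.971 over 14 males (Spearman's rho 0.657), but 0.682 without dominant male 1 (rho 0.571) and 0.641 without the 2 males farthest from the median of Pcp2. Without dominant male 1 and then the 2 farthest of the other 13 it was 0.176, so among the ordinary males the relation rested on the libraries with the least Pcp2, submissive male 4 and dominant male 5. Over the 8 females r was 0.943 (rho 0.881), and 0.750 without the 2 farthest. Among the 13 males without dominant male 1, r was highest for Cbln1 (0.863) and lowest for Il16 (0.417) and Fat2 (0.422), and in females it was highest for Fat2 (0.970) and Il16 (0.967). The males were also split into replicates 1 to 4 and 5 to 7, a division chosen from earlier results of these data and not given by the labels. Within them r was 0.876 over 7 males (rho 0.393) and 0.884 over 6 (rho 0.83), so in the first of these sets the ranks followed Pcp2 less than r does.

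The mean log2 CPM of the members minus that of Pcp2 was 0.80 ± 0.25 (SD, n = 13) in the males without dominant male 1 and 0.46 ± 0.12 (SD, n = 8) in the females. In dominant male 1 it was 5.78, a value that depends on the prior count of 2 because Pcp2 had no count. Submissive male 4 had the highest balance of the other males, 1.28, and submissive male 6 the lowest, 0.40.

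The genes most like the mean of the members were ranked by Pearson's r over the 21 libraries without dominant male 1, each gene centred within its sex, among 14243 genes. Of the first 10, 9 are named here, Inadl, a scaffold of cell polarity (r = 0.925), Megf11 (0.924), Crtam, an adhesion receptor first known from T cells (0.913), the zinc finger factor Zfp521 (0.911), Svep1 (0.904), the metalloprotease Tll1 (0.902), Btg1 (0.899), the potassium channel Kcnk10 (0.897) and Gm2694 (0.896). Pcp2 came 110th in the order with r = 0.753. Dominant male 1 had not been used for this order, and there the 9 named genes remained at up to 59.9% (Inadl), with 4 of them below 50%. Crtam had 2 counts there against a median of 10.8 CPM in the other males, a share of 1.32% with a 95% exact Poisson interval of 0.159 to 4.75%.

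Whether social rank goes with the members' level was tested separately in males and females with the quasi-likelihood F test of edgeR, adjusted after Benjamini-Hochberg over all genes. In males none of the 10 members passed, as none of 14737 genes did (0%), and 0 members against 1.32% of all genes had an unadjusted p under 0.05. All 10 fold changes were below 0, as were 51.4% of all genes, and the log2 fold changes, dominant minus submissive, ran from -0.25 for Gabra6 to -0.07 for Zic2 with a median of -0.14. The mean of Gabra6 was 121 ± 66.8 CPM (SD, n = 7) for the dominant males and 144 ± 31.8 CPM (SD, n = 7) for the submissive ones, with a 95% interval of the log2 fold change from -1.17 to 0.66 (adjusted p = 1.00 from the same edgeR test). Dominant male 1 alone set the low end of the dominant group.

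Without dominant male 1 the log2 fold changes of the members lay between -0.07 for Cbln1 and 0.08 for Neurod1, with 3 of the 10 below 0 (50.7% of all genes) and a median of 0.04. Again 0 of 14787 genes passed (0%), while 1.47% had an unadjusted p under 0.05 in the same edgeR test and none of the members did. For Gabra6 the means were then 141 ± 44.1 CPM (SD, n = 6) and 144 ± 31.8 CPM (SD, n = 7), a log2 fold change of -0.03 with an interval from -0.42 to 0.36. For Chn2, the most precise member, it was 0.04 with an interval from -0.16 to 0.25. Differences of any size inside these intervals remain possible with these mice.

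In females the 10 members did not pass either, while 14 of 14865 genes did (0.0942%), and 0 members against 10.5% of all genes had an unadjusted p under 0.05. The count of 14 changed widely with the processing and with single libraries left out, as given in the closing section. The log2 fold changes were below 0 for 9 of the 10 members (50.9% of all genes) and ran from -0.18 for Zic2 to 0.05 for Gabra6. Zic2 had 31.6, 31.5, 29.6 and 22.01 CPM in dominant females 1 to 4 and 34.6, 27.2, 36.1 and 31.7 CPM in submissive females 1 to 4. The groups overlapped, and its log2 fold change had an interval from -0.37 to 0.02 (adjusted p = 0.552, edgeR, Benjamini-Hochberg). The direction was not the same in every cage, since the mean of the members was lower in the dominant mouse of female cages 1, 3 and 4 but higher in that of female cage 2 (0.43 on the log2 scale), and with only cages 1 and 2 in the fit all 10 log2 fold changes were above 0. With only cages 3 and 4, the labelled groups, all 10 were below 0, from -0.41 for Cbln3 to -0.16 for Il16. Their adjusted p-values were 0.0746 to 0.658 in edgeR. Over all 8 females the adjusted p-values of the members ranged from 0.552 to 0.965 in the same edgeR test.

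**Figure D4:**
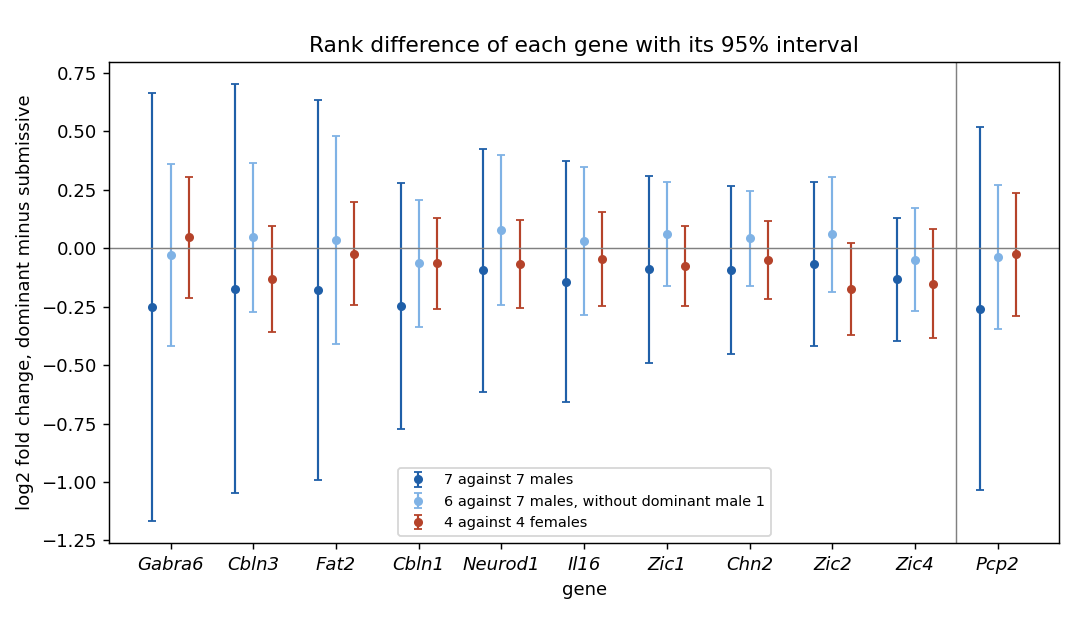
Log2 fold change, dominant minus submissive, of the 10 granule cell genes and Pcp2 with 95% intervals from edgeR, for 7 against 7 males, for males without dominant male 1 and for 4 against 4 females. All intervals include 0, and those of the males narrow once dominant male 1 is left out.

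Whether the rank difference was unequal in the sexes (female minus male) was tested over all 22 libraries as well. None of the 10 members and none of 15233 genes (0%) passed in edgeR after Benjamini-Hochberg adjustment, 2 members against 47.4% of all genes had an interaction below 0, and 3.32% of all genes but 0 members had an unadjusted p under 0.05. The interaction was largest for Gabra6, 0.30 on the log2 scale with an interval from -0.93 to 1.54, and became 0.08 without dominant male 1. Of the other listed granule cell genes and the Purkinje cell genes, 0 of 12 and 0 of 13 tested genes passed in males, and 0 of 13 and 0 of 13 in females, by the same edgeR test.

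Within cages, the members went the same way but the direction changed from cage to cage. The mean of the members was lower in the dominant mouse in 7 of 11 cages, 4 of 7 among males and 3 of 4 among females. In 8 of the 11 cages all 10 genes had the same sign, with 4 cages where all were lower and 4 where all were higher in the dominant mouse. Besides cage 1 of the males, where the mean difference was -3.27 on the log2 scale, the largest were -0.73 in male cage 5 and 0.50 in male cage 4. Gabra6 had 71.5 CPM in the dominant and 140.2 CPM in the submissive mouse of male cage 5, and 158 and 91.7 CPM in those of male cage 4. Pcp2 had the sign of the members' mean in 9 of the 11 cages.

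**Figure D5:**
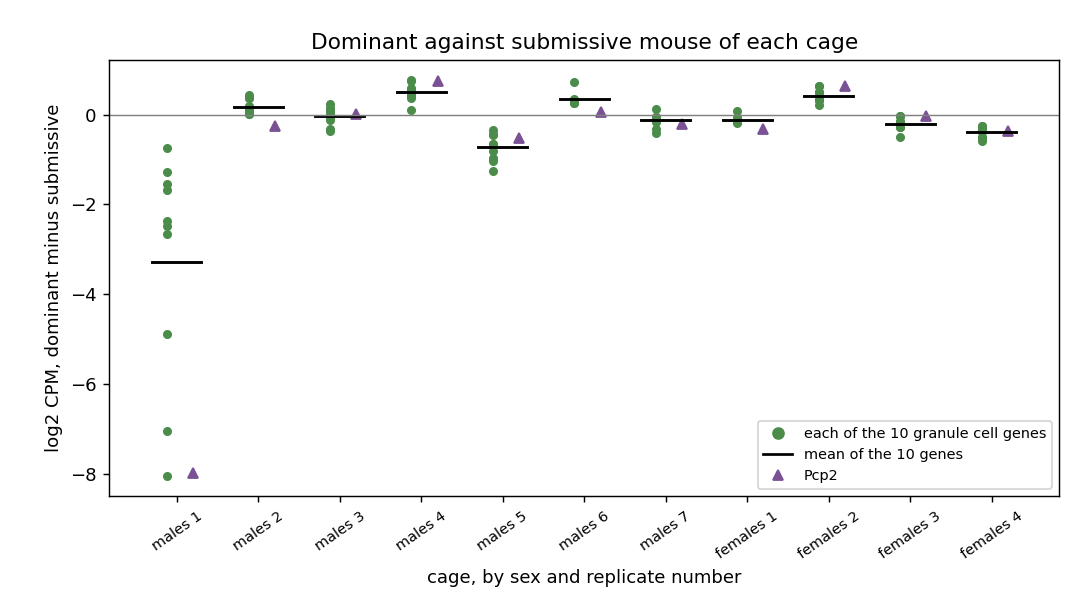
Difference in log2 CPM between the dominant and the submissive mouse of each of the 11 cages, with 1 green point per granule cell gene, a black line for their mean and a triangle for Pcp2. In 8 cages all 10 genes lie on the same side of 0, 4 cages below and 4 above.

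The sexes differed in the balance among members. The female median was higher than that of the 13 males for 6 of the 10 genes, most for Zic2 (1.39-fold), Cbln1 (1.32-fold), Zic1 (1.27-fold) and Neurod1 (1.26-fold), and lower for Fat2 (0.632-fold) and Il16 (0.865-fold), while Gabra6 (0.981-fold) and Cbln3 (1.03-fold) were close. The ratio was 1.35 for Pcp2. In males the median of replicates 5 to 7 was lower than that of replicates 1 to 4 without dominant male 1 for 9 of the 10 genes, most for Fat2 (0.721-fold), Gabra6 (0.732-fold), Il16 (0.747-fold) and Neurod1 (0.755-fold), and higher for Cbln1 (1.10-fold). No test was made of either, since sex goes with the sequencing project and the split of the males came from the data.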

How the data were processed

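Reads of stranded, ribosome-depleted total RNA libraries were trimmed by the authors with cutadapt 1.15, mapped to mm10 with STAR 2.6.0a and counted per gene with featureCounts 1.6.2 (versions from the submitters' processing notes), and the deposited values are these raw counts, with the exon length of each gene. The strand setting was not given in the sources used here. From the deposited counts, CPM and log2 CPM (prior count 2) were computed with edgeR 4.0.16 (R 4.3.3) and TMM over all 22 libraries, and RPKM with the file's exon lengths. Rank was tested per sex with the quasi-likelihood F test of edgeR, after its expression filter (minimum count 10, minimum total 15), with a threshold of 0.05 after Benjamini-Hochberg adjustment. The interaction used 4 group means. The rank tests were also run on simulated counts with planted changes, but that simulation held no library like dominant male 1. Its outcome is not reported here.

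The named genes were the 10 members, Pcp2, the gene lists of cell types and regions and the 10 genes most alike, and members and lists were chosen with earlier results of these data known. Crtam was singled out among the alike genes after its values were seen. Replicate numbers pair the libraries because the library names give them the same cage. The deviations of same-numbered libraries from their group means correlated across genes with a mean r of 0.196 in males (-0.0511 to 0.303) and 0.0237 in females. Each library came from 1 mouse. Alternatives were DESeq2 1.42.0, its size factors in edgeR, no expression filter, the replicate block, subsets of cages, all libraries in 1 fit and leaving out each library. Promoter windows are from RefSeq (GRCm38.p6) and exons from GENCODE. Some genes of the lists are not reported here.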

Additional observations from a re-analysis of the deposited data

Results flagged for a closer look

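Of 44 combinations of a gene and a group, 2 held a library far from the others of its group by Dixon's criterion, and chance alone flags about 1 in 20 groups. Pcp2 in the dominant males had its lowest value in dominant male 1, 0 CPM, with a gap to the next male of 0.605 of the group's range (n = 7). The low cerebellar values of this library were known when the genes were chosen, so this flag carries no test. In the same group Gabra6 was not flagged, although dominant male 1 had 0.497 CPM against 71.5 CPM in the next male, dominant male 5. Chn2 in the submissive males had its lowest value in submissive male 4, 128 CPM, with a gap of 0.593 of the range (n = 7).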

How the results depend on the processing

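None of the 10 members passed the threshold under any of the alternatives run, in males, in females or in the interaction, except that Zic2 and Zic4 had no adjusted p from DESeq2 in females and could not be judged there. The number of genes of all kinds that differed by rank in females was 14, but 66 with DESeq2, 84 with no expression filter, 36 with the replicate block, 0 with all 22 libraries in 1 edgeR fit (579 at an unadjusted p under 0.05), 5 with only the cages of females 1 and 2 and 120 with only those of females 3 and 4. Leaving out each library in turn gave 0 (without submissive female 1 or 3, with 1426 and 1356 at an unadjusted p under 0.05 in edgeR) to 77 (without dominant female 2). The causes were not tested.

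Likeness of the members to Pcp2 (r = 0.971 in males, 0.943 in females) fell to 0.641 and 0.750 without the 2 farthest libraries, and to 0.682 in males without dominant male 1. The replicate block, which pairs cage mates, changed no call of a member, but with all cages it moved male log2 fold changes by over 1.5 times for Gabra6 (-0.25 to -0.45), Cbln3 (-0.17 to -0.37), Fat2 (-0.18 to -0.36), Neurod1 (-0.095 to -0.18), Zic1 (-0.090 to -0.14), Chn2 (-0.094 to -0.15) and Il16 (-0.14 to -0.22). Signs of small log2 fold changes did turn. With the replicate block and without male cage 1 the male values became 0.053 for Cbln3, 0.057 for Fat2, 0.090 for Neurod1, 0.065 for Zic1, 0.061 for Zic2, 0.061 for Chn2 and 0.057 for Il16. In the interaction the same setting, added after seeing the data, gave -0.17 for Cbln3, -0.067 for Fat2, -0.15 for Neurod1, -0.13 for Zic1, -0.10 for Chn2 and -0.097 for Il16. With only the cages of females 1 and 2 the female values became 0.17 for Cbln1, 0.16 for Cbln3, 0.20 for Fat2, 0.12 for Neurod1, 0.13 for Zic1, 0.027 for Zic2, 0.072 for Zic4, 0.13 for Chn2, 0.073 for Il16 and 0.13 for Pcp2, and with only those of females 3 and 4 -0.23 for Gabra6.

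Leaving out each library in turn, the male values ranged from -0.28 to 0.047 for Cbln3, -0.15 to 0.042 for Chn2, -0.36 to 0.036 for Fat2, -0.25 to 0.029 for Il16, -0.20 to 0.078 for Neurod1, -0.18 to 0.060 for Zic1 and -0.16 to 0.059 for Zic2. All of these turned without dominant male 1, and Neurod1 (0.00055) and Zic2 (0.0026) also without dominant male 5. The female values ranged from -0.18 to 0.027 for Cbln1, -0.13 to 0.030 for Chn2, -0.15 to 0.062 for Fat2, -0.085 to 0.18 for Gabra6, -0.13 to 0.043 for Il16, -0.16 to 0.048 for Neurod1, -0.16 to 0.079 for Pcp2 and -0.16 to 0.011 for Zic1, and turned without dominant female 1, 3 or 4 or submissive female 1, 2 or 3. The interaction ranged from -0.17 to 0.16 for Cbln3, -0.085 to 0.13 for Chn2, -0.052 to 0.34 for Fat2, -0.066 to 0.22 for Il16, -0.14 to 0.15 for Neurod1, -0.13 to 0.11 for Zic1, -0.23 to 0.0067 for Zic2 and -0.097 to 0.085 for Zic4. The median share that remained in dominant male 1, 21.7%, was 18.5 to 23.2% under the alternatives.

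With 7 or 4 mice per group the spread between mice limits the rank comparisons, and in dominant male 1 the 7 counts of Gabra6 and 0 of Pcp2 are limited by depth.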
